A study of Mus musculus with 4 samples.

Results

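The genes of cholesterol and fatty acid synthesis were followed in neurospheres, free-floating cultures of neural stem and progenitor cells. They were taken as the probe sets annotated with 1 symbol, that symbol being on a list of 35 genes of the mevalonate and sterol pathway, its regulation by sterols, and the making, desaturation and elongation of fatty acids. Probe sets were found for 34 of the 35 genes, out of 18193 genes with such a probe set in all. Acat2 had none in the annotation used here. The 34 genes had 81 probe sets, 66 on the MOE430A array and 15 on the MOE430B array.

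The samples were an E2f4 knockout RNA and a wild-type RNA, both from neurospheres of the embryonic forebrain at E12.5, with the ventral telencephalon named as the source. E2F4 is a transcription factor that, together with pocket proteins, represses genes of the cell cycle. Each RNA was hybridised once to MOE430A and once to MOE430B, Affymetrix arrays with largely different probe sets. The labels name no promoter, Cre line or strain, and do not say how many embryos or cultures went into an RNA. There was 1 RNA per genotype, so no value here carries an error across samples or a p-value. A difference between the samples cannot be told apart from a difference between any 2 cultures.

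Cells make cholesterol and fatty acids from acetyl-CoA. In the mevalonate pathway acetyl-CoA units become farnesyl diphosphate, which is joined to squalene, closed to lanosterol and trimmed to cholesterol. Fatty acid synthesis builds palmitate, which elongases lengthen and desaturases make unsaturated. Genes of both branches are switched on by the sterol regulatory element binding proteins (SREBPs), which SCAP escorts out of the endoplasmic reticulum and INSIG proteins hold back when sterol is plentiful. The developing brain makes its own cholesterol, since little passes from the blood, and dividing progenitors need both lipids for membranes.

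Promoter windows of 28 of the 35 listed genes were taken from RefSeq (GRCm38.p6), each with 250 bases before and 50 after an annotated start. They were searched on both strands for short motifs of the SREBPs, of NF-Y and Sp1, which act beside them, and of E2F factors: the sterol regulatory element as TCACNCCAC, the E-box CACGTG, which SREBPs also bind, the CCAAT box of NF-Y, the GC box GGGCGG of Sp1, and the E2F words TTTCCCGC, TTTCGCGC, TTTGCCGC and TTTGGCGC. A CCAAT box was present in windows of 23 of the 28 genes, or 82.1%, against 41.1% of 27025 genes with a window. The GC box was likewise present for 23 of 28, against 38.2% of genes. The E-box was present for 6 of 28, or 21.4%, against 8.09% of genes. In these windows only Hmgcs1 held the sterol regulatory element word, found in 1.44% of genes, and only Fasn held an E2F word, found in 2.60%. A match is a run of letters and not a measured binding site. Other spellings of the elements, and bases outside the windows, were not searched. Fdft1, Fdps, Sqle, Scd1, Scd2, Fads1 and Stard4 had no window, so nothing is known of them here. The letters of these motifs overlap where a CCAAT box on one strand abuts one on the other, as in Fasn.

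Windows are shown for these 2 genes, for Acss2, the member with the highest ratio of knockout to wild-type signal, and for Nsdhl, the sterol gene with the lowest. Capitals mark the motif words on either strand. The window of Hmgcs1 lies at chr13:119690101-119690400 on the plus strand, that of Fasn at chr11:120824498-120824797 on the minus strand, that of Acss2 at chr2:155517793-155518092 on the plus strand, and that of Nsdhl at chrX:72918271-72918570 on the plus strand.
Hmgcs1: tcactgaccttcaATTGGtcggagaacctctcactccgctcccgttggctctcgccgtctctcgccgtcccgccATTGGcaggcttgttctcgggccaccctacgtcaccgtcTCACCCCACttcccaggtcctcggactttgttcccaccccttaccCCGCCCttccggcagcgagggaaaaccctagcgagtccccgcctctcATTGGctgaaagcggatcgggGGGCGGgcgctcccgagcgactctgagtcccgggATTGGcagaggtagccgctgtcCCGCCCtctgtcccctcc
Fasn: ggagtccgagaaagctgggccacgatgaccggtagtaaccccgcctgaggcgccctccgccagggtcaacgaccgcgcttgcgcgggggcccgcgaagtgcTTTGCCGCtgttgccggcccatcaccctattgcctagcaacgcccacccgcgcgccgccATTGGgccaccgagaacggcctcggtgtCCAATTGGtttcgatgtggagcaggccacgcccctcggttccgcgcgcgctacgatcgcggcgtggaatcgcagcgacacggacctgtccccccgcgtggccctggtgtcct
Acss2: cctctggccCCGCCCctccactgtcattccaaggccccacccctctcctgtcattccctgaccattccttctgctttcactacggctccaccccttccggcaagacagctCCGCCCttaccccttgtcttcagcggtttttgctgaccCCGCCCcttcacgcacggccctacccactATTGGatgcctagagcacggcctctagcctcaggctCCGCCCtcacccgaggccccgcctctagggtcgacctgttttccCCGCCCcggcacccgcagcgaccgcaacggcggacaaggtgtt
Nsdhl: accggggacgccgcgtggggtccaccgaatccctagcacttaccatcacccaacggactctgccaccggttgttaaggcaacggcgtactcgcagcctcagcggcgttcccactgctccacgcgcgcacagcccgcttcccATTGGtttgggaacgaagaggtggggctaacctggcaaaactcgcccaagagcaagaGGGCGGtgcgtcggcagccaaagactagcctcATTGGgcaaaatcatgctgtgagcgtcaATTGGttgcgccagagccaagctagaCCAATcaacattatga
The window of Hmgcs1 held 4 CCAAT boxes and 3 GC boxes besides its sterol element. The window of Nsdhl also held 4 CCAAT boxes, with 1 GC box, and that of Acss2 held 5 GC boxes and 1 CCAAT box.

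The values are MAS5 signals on a linear scale. Probe sets were called measured if the knockout and the wild-type array both reached a floor, the mean of the median signals of the knockout and wild-type arrays, which was 735 on MOE430A and 942 on MOE430B. This left 56 of the 81 probe sets and 33 of the 34 genes. A further 6 probe sets reached the floor on 1 array only, 4 in the knockout and 2 in the wild type. The fold bounds given for them below come from the array where they were brighter, so they are no support for a difference. They did not enter the gene values. A gene's value was the mean of the log2 ratios, knockout over wild type, of its measured probe sets, each centred on the median ratio of its array design. Of the 33 genes, 17 rested on 1 measured probe set. Between measured probe sets of the same gene the pooled SD was 0.33 on the log2 scale over 3957 genes, and 28 of the 33 members lay nearer to 0 than that, or 84.8%, beside 75.0% of all measured genes. Over the members alone this SD was 0.25, and 22 of the 33 lay nearer to 0, or 66.7%, beside 63.2% of all measured genes.

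Array medians were 736 in the knockout and 735 in the wild type on MOE430A, and 942 in the knockout and 941 in the wild type on MOE430B. The E2f4 probe set read 1535 in the knockout sample and 1812 in the wild type, a log2 ratio of -0.24. The sources used here do not place it relative to the deleted part, so it does not check the genotype label. All 9 listed markers of neural stem and progenitor cells were measured, 7 of them higher in the knockout sample. Of ventral telencephalon markers 5 were measured, and all 5 read lower in the knockout (median log2 ratio -0.36), while 5 of 6 dorsal markers read higher (median 0.48).

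The lipid synthesis genes had a median log2 ratio of 0.06, with 19 of 33 measured genes higher and 14 lower in the knockout sample, and the range was -0.56 to 0.66. Over all 10174 measured genes the median was -0.001, with 49.8% of genes higher. By a size rule of 0.32 in log2 ratio either way, 2 members were higher, Acss2 and Sc5d, where 12.7% of all measured genes passed. By the same rule 3 members were lower, Scd1, Nsdhl and Dhcr7, where 13.5% of all measured genes passed. Together these 5 make 15.2% of the members, beside 26.2% of all measured genes, so members passed the rule no more often than genes in general. By a rule of 2-fold no member was higher or lower, where 0.531% of all genes were higher and 0.482% were lower.

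Of the 5 genes past 0.32, 4 rested on a single measured probe set. Among all genes with 1 measured probe set, 33.0% passed this rule either way, against 15.6% of genes with more than 1. Of the 16 members with more than 1 measured probe set, 10 had probe sets on both sides of 0, 6 had all of them above 0 and none had all of them below. The 6 were Mvd, Fdft1, Scap, Acly, Acaca and Scd2, all with a mean within 0.32. With no floor the means of Fdft1 and Acly were past it. How often probe sets of other genes fall on the same side was not counted, so these counts describe the members alone.

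**Figure D1:**
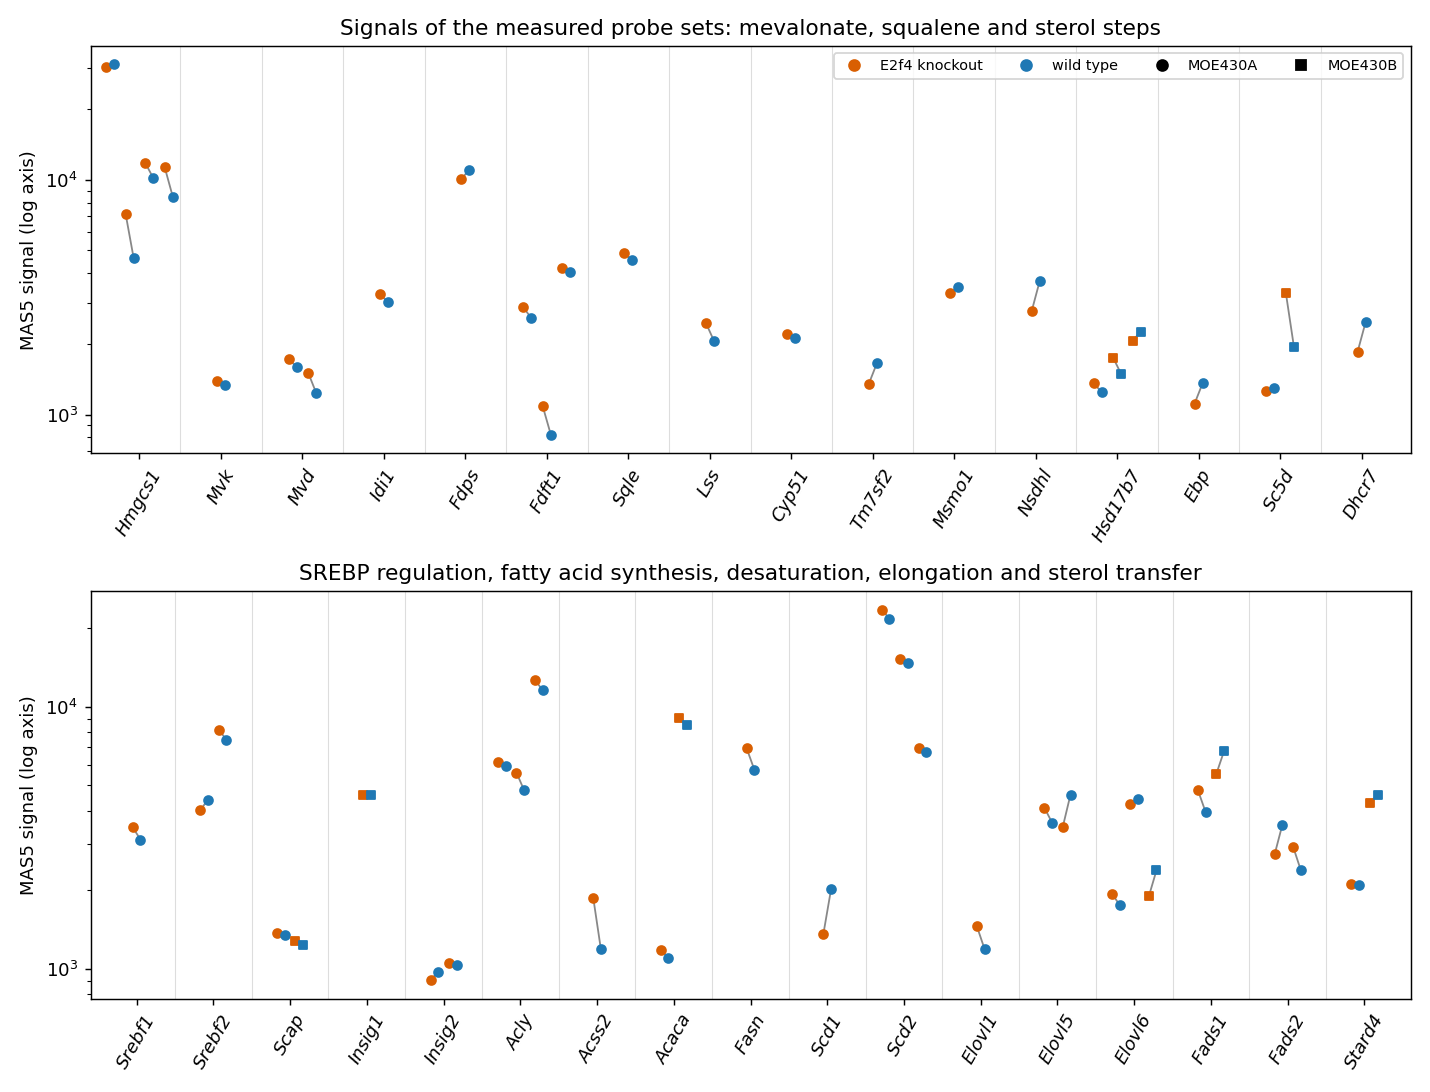
MAS5 signal (log axis) of every measured probe set of the members, knockout (orange) left of wild type (blue) and joined by a line, with circles for MOE430A and squares for MOE430B. Most lines are nearly level, and the steepest slopes belong to Sc5d on MOE430B, Acss2, 1 of the 4 Hmgcs1 probe sets and Scd1.

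The mevalonate steps had 5 measured genes, 4 of them slightly above the wild type in the knockout. The median log2 ratio was 0.11 and none was past 0.32. Hmgcs1, the synthase that makes HMG-CoA, read 7167, 11831, 11309 and 30251 in the knockout sample and 4622, 10166, 8454 and 30980 in the wild type. Its probe sets stood at 0.64, 0.22, 0.42 and -0.03, with a mean of 0.31, just inside 0.32. The brightest of them was thus level between the samples and the other 3 were higher in the knockout. Over the alternatives to the processing, the value of Hmgcs1 ran from -0.03 to 0.53. Mvd, the decarboxylase that yields isopentenyl diphosphate, read 1724 and 1510 in the knockout sample and 1598 and 1236 in the wild type, a mean of 0.20 with both probe sets higher.

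Idi1, the isomerase of isopentenyl diphosphate, read 3257 in the knockout sample and 3015 in the wild type, a log2 ratio of 0.11. A further Idi1 probe set passed the floor only in the knockout, with 898 there and 491 in the wild type, which makes it at least 1.22-fold higher. Where that probe set enters, the mean of Idi1 was 0.49 with the floor at the 30th percentile and 0.48 with no floor. Mvk, mevalonate kinase, read 1386 in the knockout and 1334 in the wild type, a log2 ratio of 0.06. Pmvk, the kinase after it, had no measured probe set: its only one read 1099 in the knockout sample, above the floor, and 723 in the wild type, below it, and was at least 1.5-fold higher. Fdps, which makes farnesyl diphosphate, was the 1 measured member of this group that was lower, with 10095 in the knockout and 11014 in the wild type, a log2 ratio of -0.12.

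The squalene and sterol steps held 11 genes, all of them measured. Their median was 0.06, with 6 higher and 5 lower, and their range of -0.43 to 0.36 was wide beside that of the mevalonate steps, which ran from -0.12 to 0.31.

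Before lanosterol, Fdft1, squalene synthase, read 2863, 1084 and 4227 in the knockout sample and 2578, 820 and 4030 in the wild type, with a mean log2 ratio of 0.21. Another Fdft1 probe set passed the floor only in the knockout, with 1448 there and 416 in the wild type, at least 1.97-fold higher. Where that probe set enters, the mean of Fdft1 was 0.61 with the floor at the 30th percentile and 0.60 with no floor. Sqle, squalene epoxidase and a rate-controlling step, read 4879 in the knockout and 4534 in the wild type, a log2 ratio of 0.11. Lss, which closes the ring to lanosterol, read 2466 in the knockout and 2066 in the wild type, a log2 ratio of 0.26. Its 2 other probe sets stayed under the floor on both arrays and ran the other way, with 359 and 510 in the knockout and 455 and 672 in the wild type. With the floor at the 30th percentile the mean of Lss was -0.16, and with no floor -0.17.

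After lanosterol, the 2 lowest genes were Nsdhl and Dhcr7. Nsdhl, a dehydrogenase that takes part in removing methyl groups from the sterol ring, read 2753 in the knockout sample and 3712 in the wild type, a log2 ratio of -0.43 or 1.35-fold lower. Dhcr7, which makes cholesterol in the last reduction, read 1848 in the knockout and 2483 in the wild type, 1.34-fold lower with a log2 ratio of -0.42. Each had a single probe set, and among all measured genes they stood at percentiles 8.07 and 8.23 of the log2 ratio.

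Tm7sf2, a sterol reductase, and Ebp, a sterol isomerase, were lower by less, at -0.29 each. Tm7sf2 read 1347 in the knockout and 1651 in the wild type, and Ebp 1114 in the knockout and 1364 in the wild type, again with 1 probe set each. Msmo1, the methylsterol oxidase, read 3292 in the knockout and 3501 in the wild type, a log2 ratio of -0.09. Cyp51, the lanosterol demethylase, stood on the other side at 0.06, with 2201 in the knockout and 2117 in the wild type. A further Cyp51 probe set passed the floor only in the knockout, with 805 there and 730 in the wild type, at least 1.10-fold higher. Another stayed under the floor on both arrays, with 81.8 in the knockout and 300 in the wild type. With no floor, where it enters, the mean of Cyp51 was -0.57. Hsd17b7, a sterol ketoreductase, read 1363, 1748 and 2067 in the knockout and 1245, 1486 and 2257 in the wild type, with probe sets at 0.13, 0.24 and -0.13 and a mean of 0.08.

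Sc5d, the sterol desaturase just before Dhcr7, was the member on which the arrays differed most. On MOE430B it read 3300 in the knockout sample and 1938 in the wild type, a log2 ratio of 0.77, and on MOE430A it read 1259 in the knockout and 1299 in the wild type, a log2 ratio of -0.04. Its mean of 0.36 was past 0.32 through MOE430B alone. Another Sc5d probe set, on MOE430A, stayed under the floor on both arrays and ran the other way, with 373 in the knockout and 647 in the wild type. With the floor at the 30th percentile or with none, where that probe set enters, the mean of Sc5d was slightly below 0, at -0.021 and -0.029.

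Nsdhl and Ebp are on the X chromosome, by RefSeq (GRCm38.p6), and both were lower. Xist, the RNA that silences an X chromosome in female cells, was 7.60-fold lower in the knockout sample, with 1178 there and 8980 in the wild type on its 1 measured probe set. The other Xist probe sets, not measured, read 47.1 and 41.8 in the knockout and 1817 and 225 in the wild type. A difference in sex between the samples could not be told apart from genotype, and its part in Nsdhl and Ebp was not tested. The 335 measured X-linked genes had a median log2 ratio of -0.0008, with 167 higher and 168 lower. Without Nsdhl and Ebp the members' median was again 0.06.

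**Figure D2:**
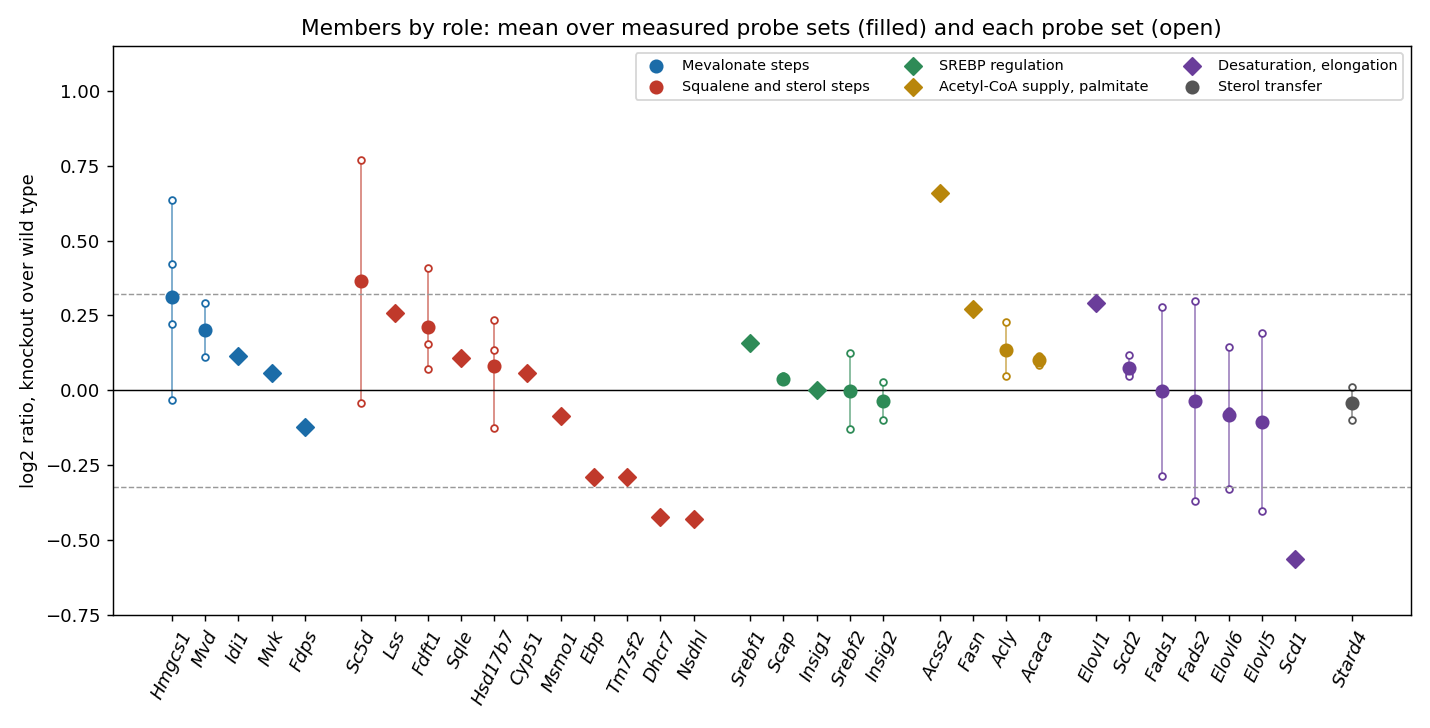
Log2 ratio of knockout over wild type for each of the 33 measured members, by role. Filled symbols are gene means (diamonds where 1 probe set was measured), open circles single probe sets, and dashed lines a log2 ratio of 0.32 either way. Acss2 and Sc5d lie above the upper dashed line, and Dhcr7, Nsdhl and Scd1 below the lower one.

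The regulators of the pathway had the narrowest range of the groups with several genes. Their 5 genes were all measured, with a median of 0.002, a range of -0.04 to 0.16 and none past 0.32. Insig1, which retains SCAP and is itself an SREBP target, read 4587 in the knockout sample and 4583 in the wild type, a log2 ratio of 0.002. Srebf2, the SREBP gene chiefly tied to cholesterol synthesis, read 4024 and 8149 in the knockout and 4409 and 7483 in the wild type, with probe sets at -0.13 and 0.13. Srebf1, tied chiefly to fatty acid synthesis, was highest of the 5 at 0.16, with 3459 in the knockout and 3107 in the wild type.

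Scap read 1362 in the knockout and 1338 in the wild type on MOE430A, and 1271 in the knockout and 1232 in the wild type on MOE430B, with a mean of 0.04. Insig2, the second INSIG, read 904 and 1054 in the knockout and 971 and 1035 in the wild type, with a mean of -0.04. Neither gene had a probe set past 0.32 among those measured.

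Acetyl-CoA supply and palmitate synthesis was, of the groups with several genes, the 1 with every gene on the same side. All 4 genes read higher in the knockout, and their median log2 ratio was 0.20. Acss2, which makes acetyl-CoA from acetate, led all members at 0.66, or 1.58-fold, with 1866 in the knockout and 1186 in the wild type. This stood at percentile 97.6 of all measured genes. It rested on 1 probe set. The other 2 stayed under the floor on both arrays, with 620 and 849 in the knockout and 554 and 412 in the wild type.

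Fasn, fatty acid synthase, read 6918 in the knockout and 5740 in the wild type, a log2 ratio of 0.27. Acly, which makes acetyl-CoA from citrate, read 6118, 5594 and 12610 in the knockout and 5929, 4790 and 11571 in the wild type, with a mean of 0.13 and all 3 higher. A further Acly probe set, on MOE430B, passed the floor only in the wild type, with 253 in the knockout and 1010 in the wild type, and was at least 1.07-fold lower. The other 2 stayed under the floor on both arrays, with 160 and 342 in the knockout and 2.19 and 144 in the wild type. With no floor, where all 6 probe sets enter, the mean of Acly was 0.97. Acaca, the carboxylase that makes malonyl-CoA, read 1182 in the knockout and 1094 in the wild type on MOE430A, and 9033 in the knockout and 8522 in the wild type on MOE430B, with a mean of 0.10. Both designs thus placed Acaca slightly above the wild type, by less than the spread between probe sets.

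Of the desaturases and elongases 2 of 7 genes were higher and 5 lower, with a median of -0.03, and 4 of the 5 lay between -0.11 and -0.003. Scd1, a stearoyl-CoA desaturase, was the lowest of all members at -0.56, or 1.48-fold lower, with 1358 in the knockout and 2011 in the wild type. Its other probe set stayed under the floor on both arrays and ran the other way, with 421 in the knockout and 98.5 in the wild type. With no floor, or a pseudocount equal to the floor, the gene's mean was above 0, at 0.76 and 0.037. Scd2, the stearoyl-CoA desaturase typical of the developing brain, was level: its 3 probe sets read 23446, 15212 and 6943 in the knockout and 21656, 14654 and 6726 in the wild type, a mean of 0.07.

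Elovl1, an elongase of very long saturated chains, read 1448 in the knockout and 1186 in the wild type, a log2 ratio of 0.29. Its other 3 probe sets stayed under the floor on both arrays, all with the lower signal in the knockout. With no floor its mean was -0.43 and with the pseudocount -0.076. Elovl6, which lengthens palmitate, read 1929, 4236 and 1886 in the knockout and 1749, 4450 and 2370 in the wild type, with probe sets at 0.14, -0.07 and -0.33, with a mean of -0.08. Elovl5, an elongase of polyunsaturated chains, read 4105 and 3483 in the knockout and 3602 and 4616 in the wild type, so that its probe sets stood at 0.19 and -0.40. The desaturases of polyunsaturated fatty acids gave the same picture of disagreeing probe sets. Fads1 read 4791 and 5535 in the knockout and 3957 and 6752 in the wild type, at 0.28 and -0.29 with a mean of -0.003. Fads2 read 2731 and 2919 in the knockout and 3534 and 2377 in the wild type, at -0.37 and 0.30 with a mean of -0.03. For these 4 genes a mean near 0 was the average of probe sets on both sides of 0.

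Stard4, a carrier of cholesterol between membranes and an SREBP target, read 2094 in the knockout and 2082 in the wild type on MOE430A, and 4298 in the knockout and 4604 in the wild type on MOE430B, with a mean of -0.04. A further probe set passed the floor only in the wild type, with 723 in the knockout and 984 in the wild type, and was at least 1.34-fold lower.

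Within a design the knockout and wild-type arrays shared a hybridisation day, and the designs had a day each, per the file headers. The 7 members measured on both designs therefore give a second reading of the same RNAs, by different probe sets on another day. The designs placed 3 of the 7 on the same side of 0, Hsd17b7, Scap and Acaca, and 4 on opposite sides, Sc5d, Elovl6, Fads1 and Stard4. For Elovl6 the values were 0.04 on MOE430A and -0.33 on MOE430B, and for Fads1 0.28 on MOE430A and -0.29 on MOE430B. The 3 genes on the same side differed between designs by at most 0.08. Across 99 probe sets that both designs carry and measured, the log2 ratios of the designs differed with an SD of 0.31.

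**Figure D3:**
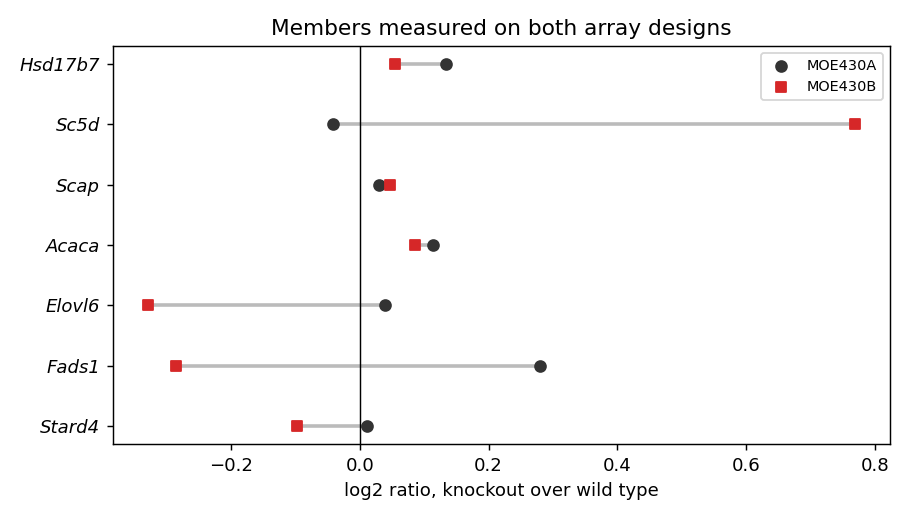
Log2 ratio of knockout over wild type on MOE430A (black circles) and MOE430B (red squares) for the 7 members measured on both designs, joined by a grey line. Hsd17b7, Scap and Acaca lie on the same side of 0 on both, and the lines of Sc5d, Elovl6, Fads1 and Stard4 cross 0.

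Further genes of lipid metabolism were read from 5 lists that share no gene with the members. Over all measured genes 12.7% were higher and 13.5% lower past 0.32, or 26.2% either way. Of genes with 1 measured probe set 33.0% passed. Genes of SREBP processing and sterol-regulated degradation had 15 of 18 measured, a median of 0.03, 1 gene higher and 1 lower past 0.32, or 13.3% in all. The higher one was Mbtps2, the protease that frees SREBPs in the Golgi, with 2039 in the knockout and 1458 in the wild type, a log2 ratio of 0.48. The lower one was Erlin2, which helps degrade sterol-regulated proteins, with 5216 in the knockout and 6736 in the wild type, a log2 ratio of -0.37. Both rested on 1 probe set each.

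The isoprenoid branches, which use farnesyl diphosphate for protein prenylation, dolichol and ubiquinone, were the most dispersed, with a median of 0.05 over 14 measured of 17 genes. Past a log2 ratio of 0.32, 2 were higher and 3 lower, or 35.7% in all, beside 26.2% of all measured genes. With the floor at the 70th percentile, where 8 genes were measured, 2 were higher and none lower. Fntb, the beta subunit of farnesyltransferase, read 1005 in the knockout and 1899 in the wild type, a log2 ratio of -0.91. Icmt, which methylates prenylated proteins, read 864 in the knockout and 1603 in the wild type, a log2 ratio of -0.89, and Rce1, which trims them, stood at -0.39. With the floor given above the higher ones were Coq5 at 0.81 and Pdss2 at 0.45, both of ubiquinone synthesis. Each of these 5 values came from 1 probe set. Coq5 read 1378 in the knockout and 790 in the wild type, near the floor, so it was not among the 2 higher at the 70th percentile. Other genes of the same branches lay nearer to 0, with Fnta, the partner subunit of Fntb, at 0.06, Pggt1b at -0.11, Zmpste24 at 0.04, Ggps1 at -0.03 and Coq2 at -0.04.

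Genes of sterol uptake, transport, storage and the liver X receptors had 16 of 22 measured and a median of -0.06, with 4 lower and none higher past 0.32. This is 25.0% of the list past 0.32, beside 26.2% of all measured genes either way, 13.5% lower and 12.7% higher. With no floor 3 were lower and 6 higher, and with the floor at the 70th percentile 1 was lower and none higher. The 4 were the efflux transporters Abcg4 at -0.41 and Abca1 at -0.41, the lipoprotein receptor Vldlr at -0.35 and the lysosomal lipase Lipa at -0.33. Abcg4 read lower on both of its measured probe sets, at -0.34 and -0.49, while the 3 of Vldlr ran from -0.64 to 0.21. Other genes of fatty acid synthesis, elongation and activation had 16 of 24 measured and a median of 0.05, with 2 past 0.32 each way, or 25.0% in all. They were Mecr, of mitochondrial fatty acid synthesis, at 0.42 and Acsl5, an acyl-CoA synthetase, at 0.40, against the elongases Elovl2 at -0.45 and Elovl4 at -0.38. Fatty acid oxidation, the reverse process, had 14 of 18 measured and a median of -0.05. Past 0.32 it had 2 lower and none higher, or 14.3% in all, Echs1 at -0.60 and Slc25a20 at -0.37.

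**Figure D4:**
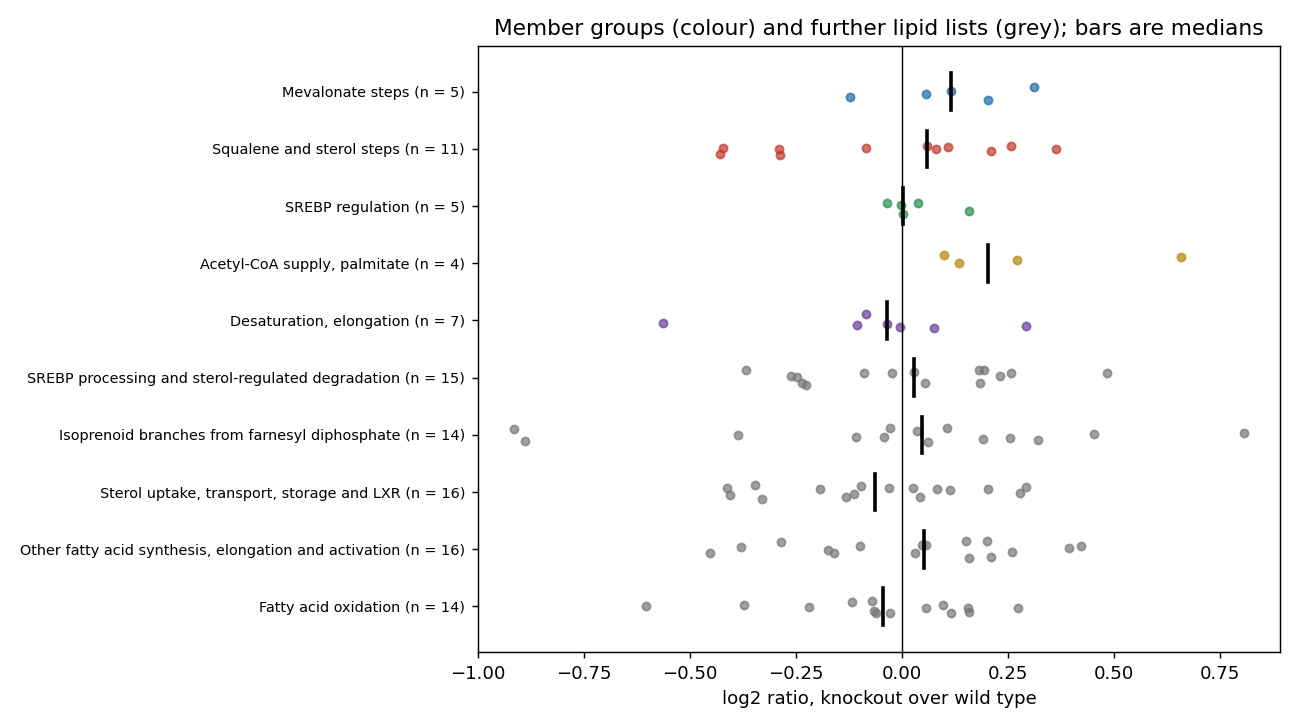
Log2 ratio of knockout over wild type for the measured genes of 5 member groups (colour) and 5 further lipid lists (grey), with the median as a black bar and a small random vertical offset to separate points. Medians run from -0.06 for sterol uptake and transport to 0.20 for acetyl-CoA supply and palmitate synthesis, and the isoprenoid list is the widest.

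Markers of other cells also differed between the samples, given here as signals summed over the listed genes. Of 8 neuron markers 7 were lower in the knockout sample, with summed signals of 99332 in the knockout and 114590 in the wild type. Of 7 oligodendrocyte lineage markers with a probe set 3 were measured and all 3 were lower, with a summed signal of 5613 in the knockout and 6650 in the wild type. Of the defining markers Olig1, Olig2, Pdgfra and Mag none was measured. Of 5 astrocyte markers 2 were measured, 1 higher and 1 lower with a median log2 ratio of -0.13, and Gfap, Aldh1l1 and S100b were not measured. Their summed signal, genes under the floor included, was 5147 in the knockout and 4350 in the wild type. Of 5 endothelial markers 2 were measured, 1 higher and 1 lower with a median of -0.003, and Pecam1, Cdh5 and Tek were not measured. Their sum was 3761 in the knockout and 4279 in the wild type. Of 4 microglial markers 1 was measured and read lower, at -0.25, without Aif1, Cx3cr1 and Tyrobp, and the sum was 3110 in the knockout and 3524 in the wild type. The 3 embryonic globins of the red cell list, all lower, summed to 92868 in the knockout and 124547 in the wild type, and no mesenchymal marker of 4 was measured. The part of cell composition in the differences above was not tested, and in RNA of whole cultures fewer cells of a type and less RNA per cell cannot be told apart.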

How the data were processed

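RNA from 1 E2f4 knockout and 1 wild-type neurosphere sample was run on MOE430A and MOE430B. The deposited signal values are on a linear scale and were made by the authors with MAS5, per the submitters' processing notes; no MAS5 version is stated in them. Genes were named from the platform annotation. Members and lists were chosen with earlier results of these data known.

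The 64 control probe sets per design were left out. Log2 ratios of knockout over wild type were centred per design on the median of measured probe sets. The shifts were -0.003 (MOE430A) and -0.001 (MOE430B), over 10402 and 9530 measured probe sets. A probe set above the floor on 1 array gave a bound, the brighter signal over the floor. All members are accounted for, and of each further list the genes past 0.32 in log2 ratio are named; other genes are named after their values were seen. With 1 sample per genotype no test was run, and the small number of arrays sets the precision. The steps were tested on simulated arrays with known ratios, larger than that of any member. They therefore do not show how well differences of the size reported here are recovered. The recovery check left out the pseudocount alternative. The 11 alternatives cover the floor (30th and 70th percentile, none, a pseudocount equal to it), the scaling (no centring, quantile, lowess with a span of 0.3), the probe sets used and each design alone. Python 3.11.15, numpy 2.4.6, pandas 2.3.3, statsmodels 0.14.6 and matplotlib 3.10.9 were used.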

Additional observations from a re-analysis of the deposited data

How the results depend on the processing

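Under the 11 alternatives the members' median of 0.06 ran from 0.0037 to 0.061, and no member passed 2-fold under any of them. Members past 0.32 upward, 2 as reported, numbered 4 with the floor at the 30th percentile, 1 at the 70th, 7 with no floor, and 1 with either design alone. Members past 0.32 downward, 3 as reported, numbered 1 when a pseudocount replaced the floor, 5 when each gene was read from its brightest probe set and 1 with MOE430B alone, which measured 8 members.

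With the floor at the 70th percentile the median was 0.18 for the isoprenoid branches and 0.045 for sterol uptake and transport. With no floor it was -0.17 for the squalene and sterol steps, 0.44 for acetyl-CoA supply and palmitate synthesis, 0.18 for sterol uptake and transport and 0.15 for other fatty acid synthesis. With the pseudocount it was 0.069 for sterol uptake and transport. With the brightest probe set it was -0.086 for the squalene and sterol steps, -0.29 for desaturation and elongation and 0.035 for sterol uptake and transport. For the squalene and sterol steps it was -0.042 over 11 genes with MOE430A alone and 0.41 over only 2 genes with MOE430B alone. MOE430B alone gave -0.31 for desaturation and elongation, over 2 genes, and -0.34 for sterol uptake and transport, over 3 genes. Sc5d gave -0.021 under the 30th percentile floor, -0.029 with no floor and -0.042 with MOE430A alone. With no floor Idi1 was at 0.48, Fdft1 at 0.60 and Acly at 0.97. Scd1 was at 0.76 with no floor and 0.037 with the pseudocount. Its second probe set, under the floor, enters in both. Probe sets that the floor left out likewise enter for Sc5d at the 30th percentile floor and with none. With no floor they also enter for Lss, Cyp51, Elovl1, Idi1, Fdft1, Acly, Insig2, Fads2 and Mvk. For Lss, Idi1 and Fdft1 they enter at the 30th percentile floor too. With MOE430A alone Sc5d is read without its MOE430B probe set. For the remaining differences the cause was not tested. Of the 33 members 18 kept their sign under every alternative that measured them, and 15 took the other sign under at least 1. With no floor these were Lss at -0.17, Cyp51 at -0.57, Elovl1 at -0.43, Insig2 at 0.26, Fads2 at 0.14 and Mvk at -0.072, besides Sc5d and Scd1. The others were Hmgcs1, Hsd17b7, Srebf2, Elovl5, Elovl6, Fads1 and Stard4.

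For sterol uptake and transport, 4 lower and 0 higher past 0.32 as reported, the counts were 3 lower and 6 higher with no floor, 1 lower and 1 higher with the pseudocount, and 1 lower and 0 higher at the 70th percentile. The isoprenoid branches, 3 lower as reported, had 0 lower at the 70th percentile. Fatty acid oxidation, 2 lower as reported, had 7 lower with no floor, and other fatty acid synthesis, 2 higher as reported, had 7 higher with no floor.

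Nsdhl ran from -0.44 to -0.35, Dhcr7 from -0.44 to -0.32 and Acss2 from 0.30 to 0.66 over the alternatives that measured them. Hmgcs1 ran from -0.03, with its brightest probe set, to 0.53, and kept its sign in 9 of 10 alternatives. Leaving out the X-linked members, an alternative chosen after seeing the data, gave a median of 0.06. Probe sets near the floor carry the least signal over background. No paired analysis was possible because there was 1 sample per genotype.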
